A study of Mus musculus with 33 samples.

Results

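A set of 48 genes of DNA replication and repair, described as genes under E2F control, was followed in mouse liver and in liver tumours of mice with altered E2f genes. Each gene was represented by the probe set that carried its symbol alone and had the highest mean over all columns of the deposited table. By this rule 47 of the 48 genes were measured, out of 18193 genes in all, and Chaf1a was not analysed here. Expression was measured in 21 livers or liver tumours of mice 12 months old, on Affymetrix arrays hybridised with biotinylated cRNA from Trizol-extracted total RNA. The E2f1 knock-in group (1KI, n = 5) and the E2f3b knock-in group (3bKI, n = 4) were hepatocellular carcinomas that had arisen spontaneously. The E2f3a knock-out group (3aKO, n = 5) and the wild-type group (wt, n = 7) were normal livers. All groups shared a mixed FVB/NT, 129S1/Svlmj and C57BL/6NT background. Genotype and tumour status coincided in 1KI and in 3bKI and cannot be told apart. The locus of each knock-in and the sex of the animals are not given in the sources used here, nor is it stated that replicates were separate animals, so p-values measure the spread between these samples.

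E2F transcription factors bind promoters together with a DP partner. When the retinoblastoma family of pocket proteins releases them late in G1, activating E2Fs turn on the genes a cell needs to copy its DNA. These include the factors that load the MCM helicase onto origins, the polymerases and the clamp that follow at the fork, the enzymes that supply deoxynucleotides, and the checkpoint and repair proteins that guard the fork. Most hepatocytes of an adult liver are out of the cell cycle, whereas hepatocellular carcinomas hold cycling cells.

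The classic E2F word in such promoters reads TTTSSCGC, with S for C or G, and spells out as TTTCCCGC, TTTCGCGC, TTTGCCGC and TTTGGCGC. These words were searched on both strands of RefSeq promoter windows that run from 250 bases before to 50 bases after the gene start (build GRCm38.p6). A word was present in 15 of the 39 members that had a window (38.5%), against 704 of 27025 genes with a window (2.60%) and 550 of the 14452 array genes with a window (3.81%). Among other replication and repair genes with a window it was present in 14 of 45 (31.1%), and among mitosis genes in 3 of 30 (10%). The members were listed as genes under E2F control, so their higher share follows from the choice of list. The 15 were Orc1, Cdc6, Cdt1, Mcm3, Mcm5, Mcm6, Mcm7, Gins3, Pola1, Pold1, Pole2, Rfc3, Lig1, Clspn and Msh6. The 160 bases before the start are printed 5′ to 3′ on the gene's strand for 3 members with a word whose changes were among the largest in tumours, and for Mcm10, which has none in its window and had the largest decrease. Capitals mark the words or their reverse complements, which overlap in Mcm6 and Mcm5. The stretches lie at chr1:128359706-128359865 (minus strand) for Mcm6, chr8:75109349-75109508 (plus strand) for Mcm5, chr11:98907991-98908150 (plus strand) for Cdc6 and chr2:5012792-5012951 (minus strand) for Mcm10.
Mcm6: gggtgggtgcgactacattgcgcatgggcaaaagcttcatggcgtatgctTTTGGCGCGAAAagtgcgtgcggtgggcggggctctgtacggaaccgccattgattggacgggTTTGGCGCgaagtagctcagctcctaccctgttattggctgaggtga
Mcm5: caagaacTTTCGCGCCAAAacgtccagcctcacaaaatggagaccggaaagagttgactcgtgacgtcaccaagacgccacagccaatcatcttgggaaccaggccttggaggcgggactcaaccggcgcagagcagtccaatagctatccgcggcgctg
Cdc6: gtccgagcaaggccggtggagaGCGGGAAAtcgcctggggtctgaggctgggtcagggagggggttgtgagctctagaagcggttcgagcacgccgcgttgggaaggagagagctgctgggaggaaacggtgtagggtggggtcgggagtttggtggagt
Mcm10: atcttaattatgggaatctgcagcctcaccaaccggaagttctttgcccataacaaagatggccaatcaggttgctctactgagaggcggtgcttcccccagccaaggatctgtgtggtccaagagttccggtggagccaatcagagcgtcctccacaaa
The Mcm6 words start 110, 106 and 47 bases before the gene start, the Mcm5 words 153 and 149 bases before it, and the Cdc6 word 138 bases before it. A word is a match of letters and not a measured binding site.

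The authors deposited log2 values in 2 separate normalizations, of which the first held 1KI, 3aKO and wt and the second 3bKI, 3aKO and wt. The 12 wt and 3aKO arrays stood in both, so the comparisons share their normal livers, and the 2 tumour groups were not set against each other. The medians of the arrays lay between 5.34 and 5.53. 1KI 3 and 1KI 4 stood apart on the first principal component of the first normalization, at 61.0 and 69.8, while the other arrays lay between -17.0 and 5.08. The 9 hepatocyte markers averaged 12.8 to 13.2 in 1KI, 12.7 to 12.9 in 3bKI, and 12.9 to 13.3 in wt over both normalizations, so markers of the labelled tissue were present in every tumour. The 7 stellate cell markers averaged 7.51 to 8.15 in 1KI and 7.58 to 8.15 in 3bKI, against 6.67 to 7.45 in wt. The median log2 changes of immune cell marker lists against wt in 1KI were -0.50 for macrophages and -0.43 for neutrophils. They were -0.24 for T and NK cells and -0.22 for B and plasma cells. In 3bKI the medians were 0.44 for B and plasma cells, 0.35 for neutrophils, 0.25 for macrophages and 0.12 for T and NK cells. The part of these cells in the members' values was not tested. In bulk RNA of this kind, fewer cells of a type and less RNA per cell cannot be told apart.

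The targeted genes were read first. E2f3 was at 7.14, 7.23, 7.81, 7.60 and 7.28 in 1KI tumours, against a lowest, median and highest value of 6.59, 6.89 and 7.03 in wt livers. Every 1KI array lay above every wt array, as in 1.12% of all genes. The log2 change of 0.57 ± 0.13 (SE) did not pass limma's test after Benjamini-Hochberg adjustment over all genes (adjusted p = 0.0780). E2f3 had a change against wt of 0.10 in 3bKI (adjusted p = 0.660), and of -0.19 in 3aKO livers (adjusted p = 0.700). E2f1 was 0.17 above wt in 1KI, 0.24 in 3bKI and 0.03 in 3aKO (adjusted p = 0.389, 0.263 and 0.953). Whether the E2f3 probe set covers the part deleted in 3aKO is not given in the sources used here, so it does not check that label.

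Few replication and repair genes passed the test in any comparison, and their median lay slightly above wt in 1KI tumours, in 3bKI tumours and in the normal 3aKO livers. In 1KI tumours 36 of the 47 members had a log2 change above 0 against wt, where 43.3% of all genes did, and the median change was 0.14, beside -0.03 over all genes. In 3bKI tumours 37 of 47 were above 0, against 53.1% of all genes, with a median of 0.08 beside 0.01. With sex, as read from Xist and Y-linked genes on the arrays, as a covariate, 15 of 47 were above 0 and the median was -0.062. That fit leaves out 3bKI 2, whose sex was unclear, and sets the other 3 tumours, read as female, against the 3 wt livers read as female. In 1KI the same covariate left 37 of 47 above 0, with a median of 0.16. In 3aKO livers 35 of 47 were above 0, against 50.5% of all genes, with a median of 0.11 beside 0.00. The median of the normal 3aKO livers thus lay between those of the tumour groups.

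At an adjusted p under 0.05, no member was called higher or lower in 1KI against wt, where 0.209% of all genes were called higher and 0.033% lower. In 3bKI against wt no member was called higher (1.09% of all genes) and 1 member, Mcm10, was called lower (0.978% of all genes). In 3aKO against wt no member was called, and 0% of all genes were called in either direction. At an unadjusted p under 0.05, the 1KI comparison with wt held 11 higher members and 1 lower member (9.05% and 10% of all genes), the 3bKI comparison 7 higher and 1 lower (9.84% and 10.9%), and the 3aKO comparison 4 higher and 0 lower (3.62% and 3.84%). These counts moved with single arrays. In 1KI they were 5 higher and 3 lower without 1KI 5, and 16 higher and 1 lower without 1KI 2. In 3bKI they were 3 higher and 3 lower without 3bKI 2, and 0 higher and 6 lower with the sex covariate. The share of all genes at an unadjusted p under 0.05 was not computed in these fits. Whether the members moved there apart from other genes was therefore not tested. In 1KI against wt no member lay wholly above or wholly below the wt arrays (1.12% and 0.863% of all genes), and neither did any in 3aKO (0.214% and 0.286%). The 11 in 1KI were Orc6, Cdc6, Mcm2, Timeless, Rfc4, Lig1, Rpa2, Rrm1, Rrm2, Brca1 and Msh6, and the 7 in 3bKI were Cdt1, Gins2, Pold1, Pole2, Lig1, Rrm2 and Brca1.

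**Figure D1:**
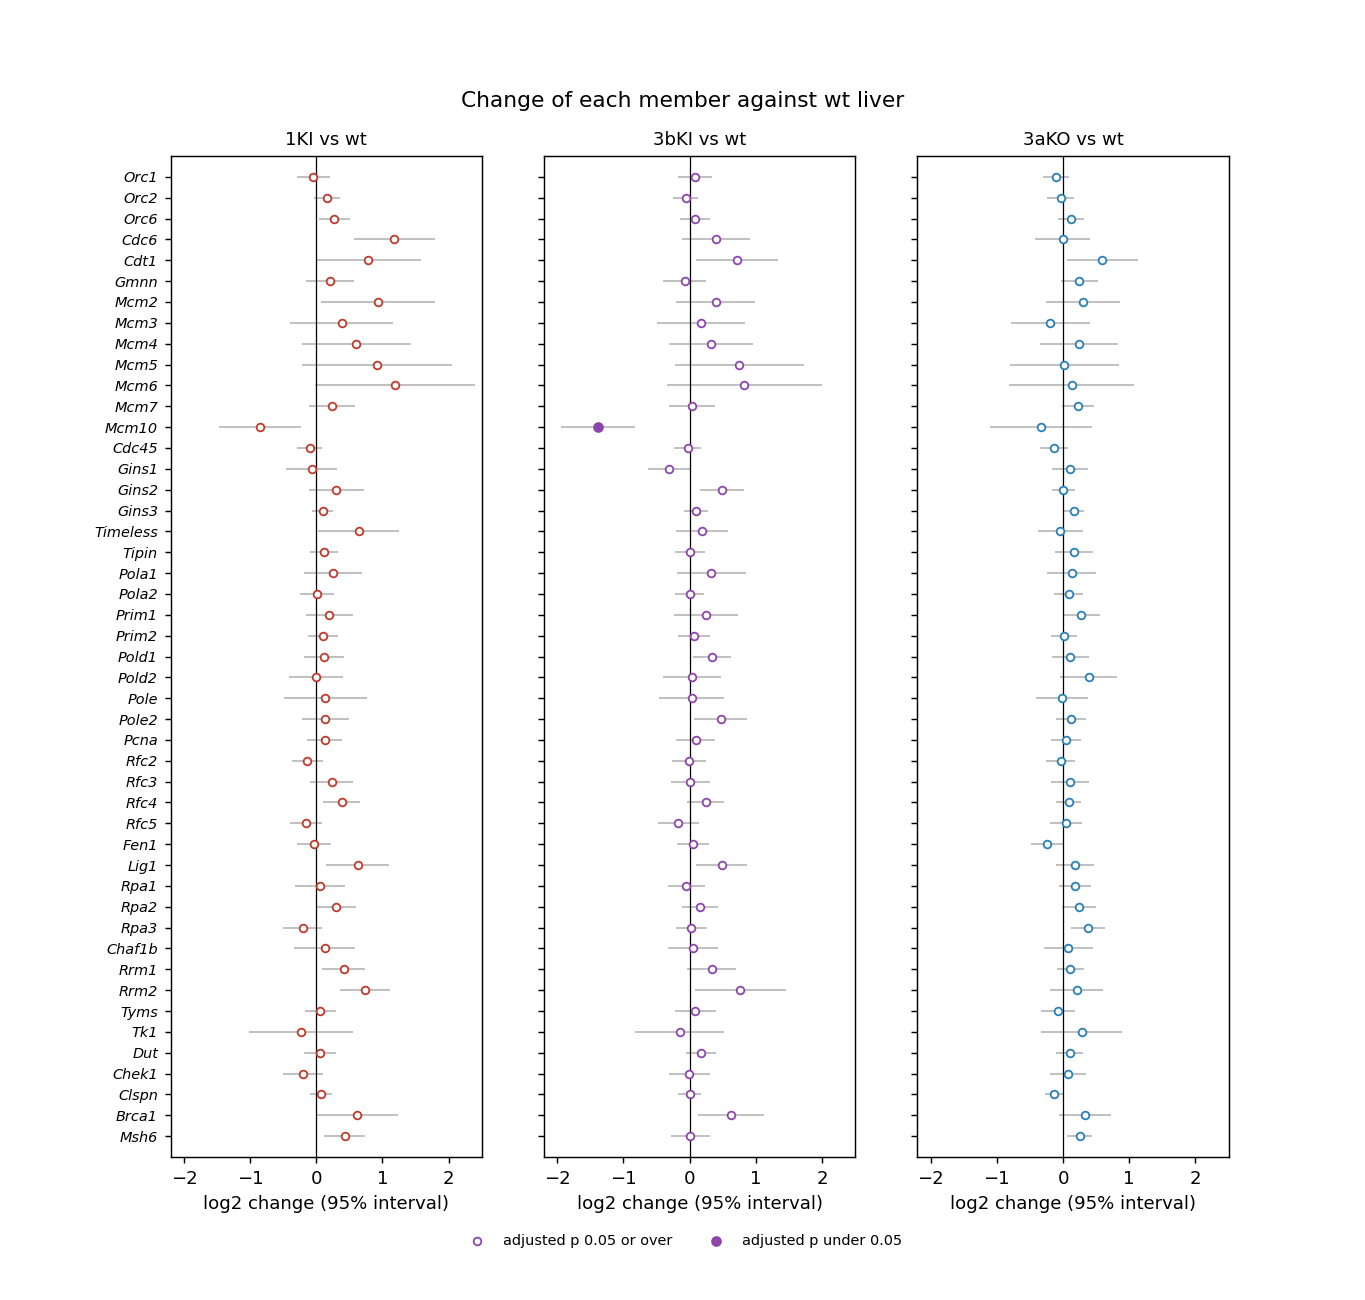
Log2 change of each of the 47 members against wt liver, from limma, with its 95% interval, in 1KI tumours, 3bKI tumours and 3aKO livers. A filled point marks an adjusted p under 0.05, which Mcm10 alone reached, at -1.39 in 3bKI.

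The members are taken in order from origin to fork to nucleotide supply and repair. Origin recognition and licensing were read from Orc1, Orc2 and Orc6 of the origin recognition complex, from the loading factors Cdc6 and Cdt1, and from Gmnn, whose product geminin blocks Cdt1. The median change of these 6 genes against wt was 0.24 in 1KI, 0.08 in 3bKI and 0.06 in 3aKO.

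Cdc6, which brings the MCM ring to the origin recognition complex, had the smallest p of all members in the 1KI tumours. Its log2 values were 4.11, 3.51, 4.30, 4.37 and 5.29 in 1KI, against 2.85, 3.20, 3.27, 3.11 and 3.23 in 3aKO and a lowest, median and highest value of 2.60, 3.09 and 4.03 in wt. All 5 tumours lay above all 3aKO livers, and 4 of them above every wt liver. The log2 change was 1.18 ± 0.28 when set against wt (adjusted p = 0.101). Set against 3aKO it was 1.19 ± 0.26 (adjusted p = 0.163). Cdc6 was the only member with no overlap between 1KI and 3aKO, where 1.45% of all genes lay wholly above and 1.96% wholly below. In 3bKI tumours Cdc6 was 0.40 ± 0.24 above wt (adjusted p = 0.365). Cdc6 was a dim gene, with means of 3.14 in wt and 3.13 in 3aKO in the first normalization. The array medians there ran from 5.48 to 5.53. The alternative that dropped the dimmest 40% of genes left Cdc6 out.

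Cdt1, the partner of Cdc6 in MCM loading, had a higher mean than wt in all 3 other groups without passing the test. In 3aKO livers it was at 7.39, 7.38, 7.57, 7.51 and 7.23, against a lowest, median and highest value of 5.86, 6.76 and 7.87 in wt, and the change was 0.59 ± 0.25 (adjusted p = 0.655). The 3aKO livers lay close together inside the upper part of the wide wt range. The tumours showed a change against wt of 0.78 ± 0.37 for 1KI (adjusted p = 0.265) and of 0.72 ± 0.28 for 3bKI (adjusted p = 0.180).

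Gmnn was at 7.09, 7.47, 7.23 and 7.54 in 3bKI tumours, against 7.58, 7.47, 7.58, 7.86 and 7.79 in 3aKO livers. The change between them was -0.32 ± 0.12 (adjusted p = 0.108), with the ranges overlapping, and against wt it was -0.08 in 3bKI and 0.20 in 1KI. Of the ORC genes, Orc6 was 0.27 ± 0.11 above wt in 1KI (adjusted p = 0.211), Orc2 0.16 above it and Orc1 at -0.04. In 3bKI their changes were 0.08 for Orc6, -0.06 for Orc2 and 0.08 for Orc1.

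The MCM ring, the hexamer of Mcm2 through Mcm7 that unwinds DNA at the fork, had the largest median change of the 8 roles in both tumour groups. All 6 genes were above 0 against wt in 1KI (median 0.76) and in 3bKI (median 0.36), and 5 of 6 in 3aKO (median 0.18), and none passed the test. With the sex covariate all 6 were below 0 in 3bKI (median -0.30), while in 1KI all 6 were above 0. Those 3bKI changes were -0.24 for Mcm2, -0.51 for Mcm3, -0.35 for Mcm4, -0.23 for Mcm5, -0.53 for Mcm6 and -0.18 for Mcm7. Without 3bKI 2 and with no covariate, 5 of the 6 were above 0 in 3bKI (median 0.30). Mcm6 had the largest increase of any member in both tumour groups when every array was used. It was at 7.49, 6.08, 7.93, 7.33 and 9.32 in 1KI tumours, against 6.51, 5.66, 6.99, 6.93 and 6.74 in 3aKO livers and a lowest, median and highest value of 5.00, 6.42 and 7.57 in wt. The highest tumour, 1KI 5, stood well above the rest, 1KI 2 was below the wt median, and the groups overlapped. The log2 change was 1.20 ± 0.56 against wt (95% interval -0.01 to 2.40, adjusted p = 0.264). Without 1KI 5 it was 0.77, below the 0.94 of Cdc6.

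In 3bKI tumours Mcm6 was at 6.14, 8.29, 7.51 and 6.32, against a lowest, median and highest value of 4.90, 6.21 and 7.33 in wt. Of the 4 tumours, 3bKI 2 and 3bKI 3 lay above every wt liver and the other 2 near the wt median. The change was 0.83 ± 0.54 (adjusted p = 0.407), and without 3bKI 2 it was 0.42, below the 0.76 of Cdt1. With the sex covariate its direction turned, to -0.53 (adjusted p = 0.604).

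Mcm5 had a log2 change against wt of 0.92 ± 0.53 in 1KI and 0.75 ± 0.45 in 3bKI (adjusted p = 0.344 and 0.362), and Mcm2 one of 0.93 ± 0.40 and 0.40 ± 0.27 (adjusted p = 0.235 and 0.437). Mcm4 was 0.61 above wt in 1KI and 0.32 in 3bKI, Mcm3 was 0.38 and 0.17 above it, and Mcm7 0.24 and 0.04. The wt livers themselves spread widely in these genes, with an SD of 1.02 in Mcm6, 0.91 in Mcm5 and 0.61 in Mcm2, against 0.22 in Mcm7 (n = 7). The wt spread in Mcm6 was thus close to the size of the tumour change.

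**Figure D2:**
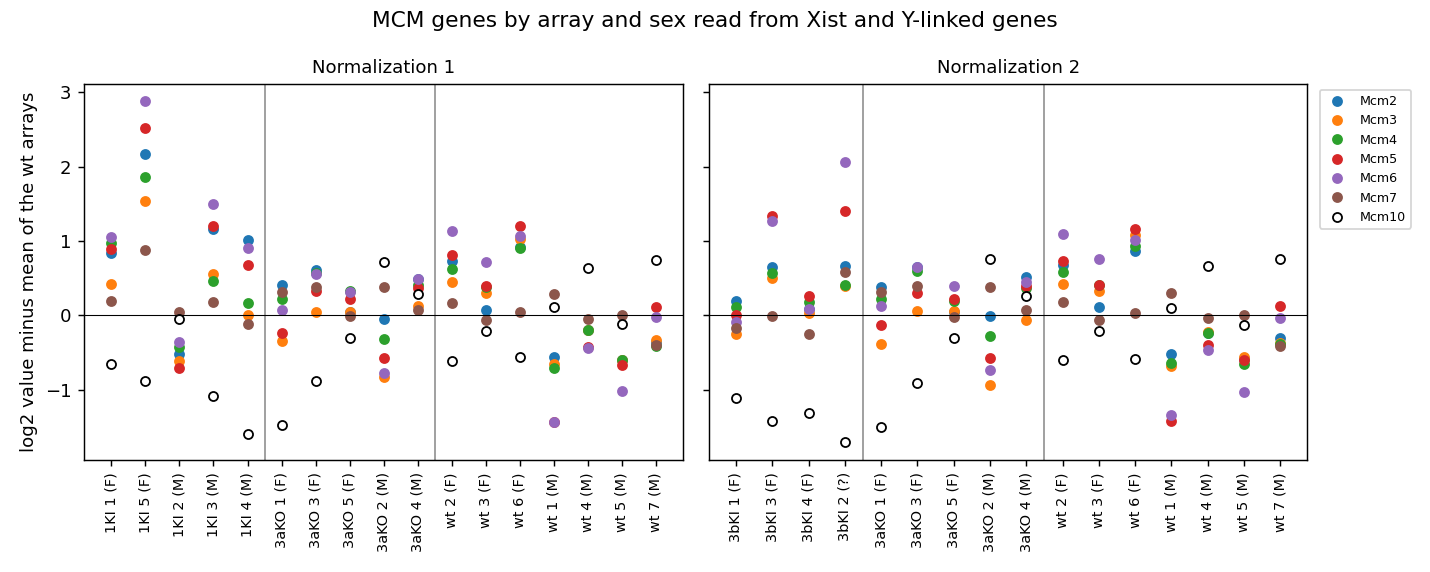
Log2 value of Mcm2 through Mcm7 and of Mcm10 in each array, minus the mean of the wt arrays, in both normalizations, with the sex read from Xist and Y-linked genes (F, M or ? for unclear) beside each array. Mcm2 through Mcm6 move together from array to array and are lower in wt livers read as male, whereas Mcm10 runs the other way.

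Once loaded, the MCM ring is switched on by Cdc45, the GINS complex (Gins1, Gins2 and Gins3 here) and Mcm10, while Timeless and Tipin protect the moving fork. This role held the members that passed the test. Mcm10, a scaffold that helps activate the helicase, was lower in 3bKI tumours on the probe set used. It was at 9.65, 9.06, 9.35 and 9.46 in 3bKI, against 9.27, 11.52, 9.85, 11.03 and 10.46 in 3aKO and a lowest, median and highest value of 10.17, 10.64 and 11.53 in wt. Every 3bKI tumour lay below every wt liver, where 2.38% of all genes did so, while 3aKO 1 lay among the tumours.

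The Mcm10 log2 change of -1.39 ± 0.26 passed limma's test (adjusted p = 0.0252, 95% interval -1.95 to -0.83). Without wt 1, 3bKI 2, 3bKI 3 or 3bKI 4 the adjusted p was 0.0558, 0.0621, 0.0730 or 0.0584, with a change of -1.37, -1.28, -1.38 or -1.41, and the call held in the other 7 of the 11 fits that left out 1 array. With the sex read as a covariate, which leaves out the unclear 3bKI 2, the change was -0.81 (adjusted p = 0.165). Of the other Mcm10 probe sets, 1 fell by 1.10 on the log2 scale (adjusted p = 0.0374 over all probe sets) and 1 had a change of 0.03. The Mcm10 probe set used had the highest wt mean of all measured members, at 10.8 in the second normalization. Pcna had a wt mean of 10.3 there, and Mcm2 through Mcm6 had means of 6.04 to 6.53. Whether so high a signal in normal liver came from Mcm10 transcript was not tested.

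In 1KI tumours Mcm10 was at 10.19, 10.80, 9.76, 9.25 and 9.97, against a lowest, median and highest value of 10.23, 10.73 and 11.60 in wt. Only 1KI 2 lay inside the wt range and the other 4 below it, and the change was -0.85 ± 0.29 (adjusted p = 0.175). It was the largest decrease of any member in 1KI as in 3bKI. Set against 3aKO, Mcm10 had a change of -0.52 in the 1KI tumours (adjusted p = 0.573) and of -1.05 in the 3bKI tumours (adjusted p = 0.114).

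The GINS genes did not share a direction in 3bKI tumours. Gins2 was at 5.88, 6.73, 5.94 and 5.92 in 3bKI, against 5.60, 5.58, 5.60, 5.86 and 5.41 in 3aKO and a lowest, median and highest value of 5.38, 5.62 and 5.79 in wt. Every 3bKI tumour lay above every normal liver of both groups, with 3bKI 2 far above the other 3. Gins2 was the only member to lie wholly above wt (1.9% of all genes) and the only one to lie wholly above 3aKO (6.03%), and no member lay wholly below 3aKO (8.95%). The change was 0.49 ± 0.15 when set against wt (adjusted p = 0.104). Set against 3aKO it was 0.51 ± 0.18 (adjusted p = 0.0920). Without 3bKI 2 the changes were 0.29 and 0.30, and with the sex covariate they were 0.21 and 0.38.

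Gins1 was at 5.89, 6.21, 5.90 and 5.88 in 3bKI tumours, against 6.28, 6.19, 6.50, 6.39 and 6.57 in 3aKO livers. The ranges touched only at 3bKI 2 and 3aKO 2. Gins1 fell by 0.42 ± 0.11 on the log2 scale against 3aKO (adjusted p = 0.0415), the only call among members in that comparison, where 6.27% of all genes were called lower and 2.92% higher. The call held in 2 of the 9 fits that left out 1 array, those without 3aKO 2 and without 3bKI 2, and the adjusted p over all 9 ran from 0.0335 to 0.0870. It was lost, at 0.0525 to 0.0870, without 3aKO 1, 3aKO 3, 3aKO 4, 3aKO 5, 3bKI 1, 3bKI 3 or 3bKI 4. The 3′ over 5′ log2 difference of the array's actin control probe sets is a sign of RNA and labelling quality. It was 0.70 to 0.87 in 3bKI, against 1.06 to 1.35 in 3aKO, with no overlap. In wt it was 0.65 in wt 7, 0.88 in wt 6 and 1.15 to 1.37 in the other arrays. That of the Gapdh controls was 0.14 to 0.18 in 3bKI, against 0.15 to 0.26 in 3aKO. The part of RNA quality in the Gins1 call against 3aKO, and in the Mcm10 call against wt, was not tested. Against wt the Gins1 change was -0.31 ± 0.15 in 3bKI (adjusted p = 0.243) and -0.07 in 1KI.

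Gins3 had a change against wt of 0.10 in both tumour groups, and Cdc45 one of -0.10 in 1KI and -0.03 in 3bKI. Timeless was 0.64 ± 0.28 above wt in 1KI (adjusted p = 0.244) and 0.19 above it in 3bKI, and its partner Tipin differed by 0.12 and 0.01.

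**Figure D3:**
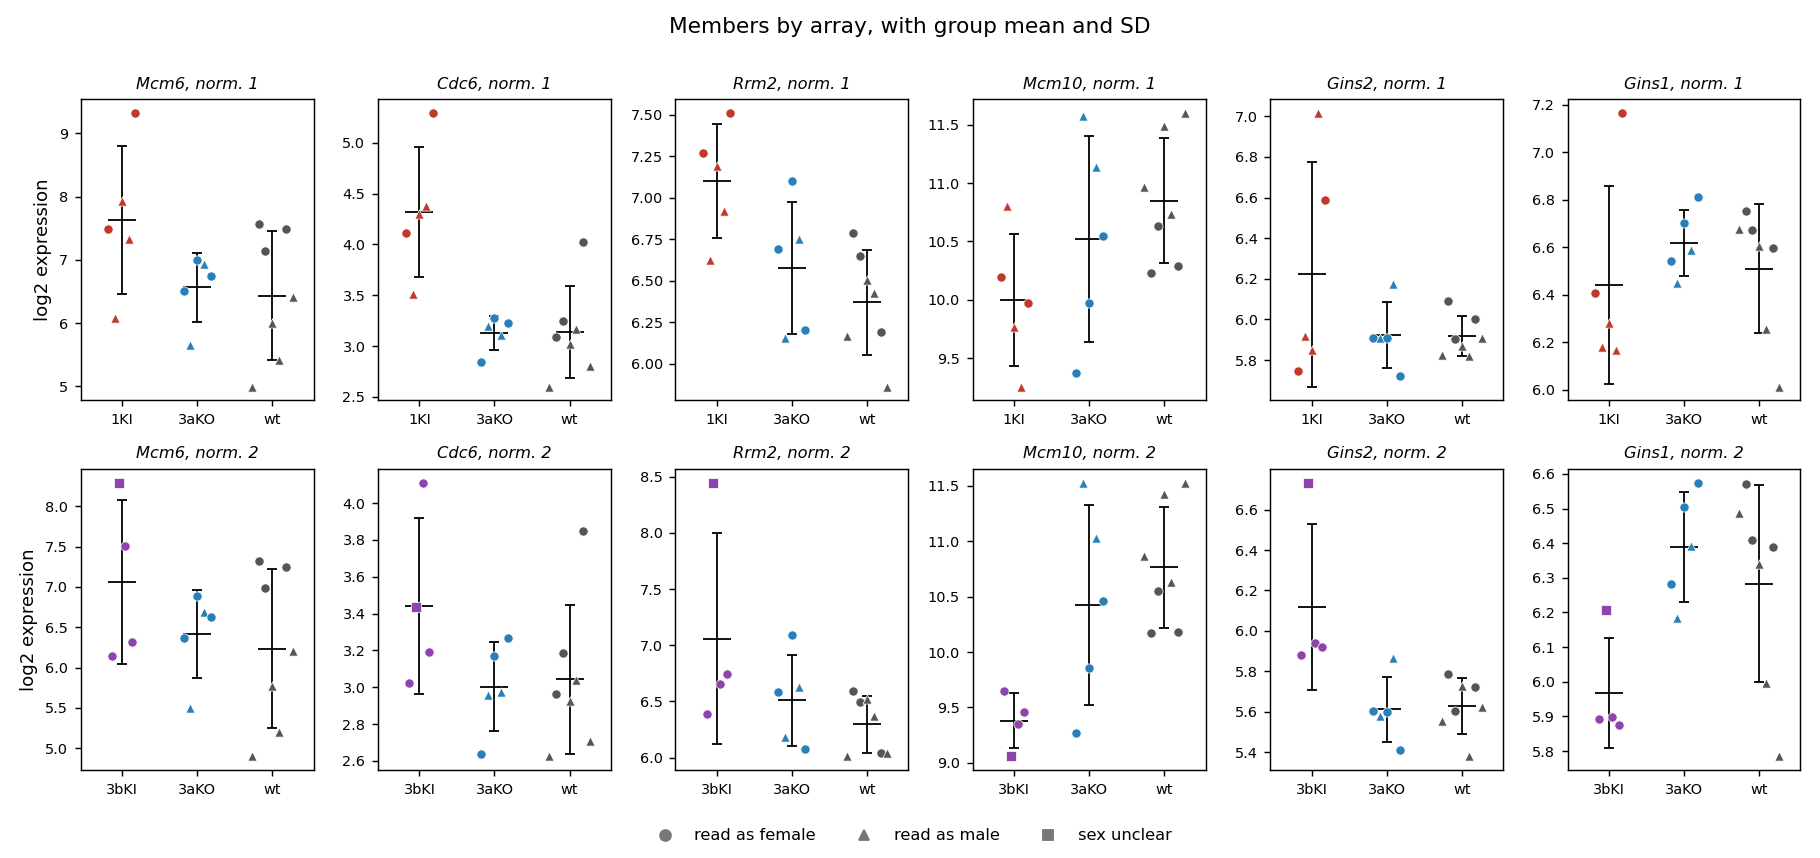
Log2 expression of Mcm6, Cdc6, Rrm2, Mcm10, Gins2 and Gins1 in each array, by group, with the group mean and SD; the marker shape gives the sex read from the array. The 3bKI tumours lie below all wt livers in Mcm10 and above all wt and 3aKO livers in Gins2, and 1KI 5 is the highest array in Mcm6 and Cdc6.

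The polymerases and primase comprise Pola1, Pola2, Prim1 and Prim2, which lay down primers, Pold1 and Pold2 of the lagging-strand polymerase delta, and Pole and Pole2 of the leading-strand polymerase epsilon. Their median change against wt was 0.13 in 1KI, 0.16 in 3bKI and 0.11 in 3aKO. All 8 were above 0 in 3bKI, with Pola2 at 0.00, and none passed the test. With the sex covariate 2 of the 8 were above 0 in 3bKI, and Pola1 was at -0.035. Without 3bKI 2 and with no covariate, 4 of the 8 were above 0 there. Pole2 was 0.47 ± 0.18 above wt in 3bKI (adjusted p = 0.173), Pold1 0.34 ± 0.13 (adjusted p = 0.174) and Pola1 0.33 ± 0.24 (adjusted p = 0.466). In 1KI the largest change was that of Pola1, at 0.25 ± 0.20 (adjusted p = 0.495). Pold2 was 0.39 ± 0.20 above wt in 3aKO livers (adjusted p = 0.690) and its change in 1KI against 3aKO was -0.39 ± 0.16 (adjusted p = 0.321).

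The sliding clamp Pcna, the clamp loader subunits Rfc2 to Rfc5, the flap nuclease Fen1 and the DNA ligase Lig1, which seals Okazaki fragments, had median changes of 0.13 in 1KI, 0.05 in 3bKI and 0.05 in 3aKO. Pcna had a change of 0.13 ± 0.12 in 1KI, 0.09 ± 0.14 in 3bKI and 0.05 ± 0.11 in 3aKO. Lig1 had the largest increase of the 7 in both tumour groups, at 0.62 ± 0.22 for 1KI (adjusted p = 0.182) and 0.48 ± 0.18 for 3bKI (adjusted p = 0.150). Rfc4 was 0.38 ± 0.13 above wt in 1KI (adjusted p = 0.175), and Rfc5 had a change of -0.16 ± 0.11. The Fen1 probe set of highest mean gave -0.03 ± 0.12 in 1KI, and another Fen1 probe set gave 0.69 (adjusted p = 0.0787 over all probe sets), so its value depended on the probe set.

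Replication protein A, the single-strand binding trimer of Rpa1, Rpa2 and Rpa3, was grouped with Chaf1b of the chromatin assembly factor that deposits histones behind the fork. The median of these 4 against wt was 0.09 in 1KI, 0.04 in 3bKI and 0.21 in 3aKO. Rpa3 had the smallest p of all members in 3aKO livers. It was at 7.98, 7.52, 7.63, 7.30 and 8.06 in 1KI and at 7.96, 8.39, 8.37, 8.63 and 8.07 in 3aKO, against a lowest, median and highest value of 7.67, 7.84 and 8.14 in wt. Of the 5 3aKO livers, 3 lay above every wt liver. The change was 0.38 ± 0.12 in 3aKO against wt (adjusted p = 0.641) and -0.58 ± 0.17 in 1KI against 3aKO (adjusted p = 0.232), and neither passed. Rpa2 was 0.30 ± 0.14 above wt in 1KI (adjusted p = 0.262), Rpa1 0.05 and Chaf1b 0.12.

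Nucleotide supply was read from Rrm1 and Rrm2, the large and small subunits of ribonucleotide reductase, from the thymidylate enzymes Tyms and Tk1, and from Dut, which clears dUTP. The median of the 5 against wt was 0.06 in 1KI, 0.17 in 3bKI and 0.11 in 3aKO. Rrm2, the subunit whose level rises in S phase, was at 7.27, 6.62, 7.19, 6.92 and 7.51 in 1KI tumours, against a lowest, median and highest value of 5.86, 6.43 and 6.79 in wt. Of the 5 tumours, 4 lay above every wt liver and 1KI 2 within their range. The change was 0.73 ± 0.18 (adjusted p = 0.104), and with the sex read as a covariate it was 0.74 and passed (adjusted p = 0.0498). In that fit 0.418% of all genes were called higher. In 3bKI tumours Rrm2 was 0.76 ± 0.32 above wt (adjusted p = 0.198), with 3bKI 2 at 8.45 and the other 3 tumours between 6.39 and 6.74, and without 3bKI 2 the change was 0.30. All 3 Rrm2 probe sets were above 0 in both tumour groups, by 0.73 to 0.92 in 1KI and by 0.76 to 0.99 in 3bKI.

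Rrm1 was 0.42 ± 0.15 above wt in 1KI (adjusted p = 0.191) and 0.33 ± 0.17 above wt among 3bKI tumours (adjusted p = 0.292). Tk1 went the other way without passing, at -0.23 ± 0.36 in 1KI and -0.15 ± 0.31 in 3bKI. Tyms and Dut both had a change of 0.06 in 1KI, and changes of 0.09 and 0.17 in 3bKI.

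Of the checkpoint and repair members, Chek1 encodes the kinase that slows the cell cycle when forks stall, Clspn its activator, Brca1 a factor of homologous recombination and Msh6 a mismatch recognition subunit. The median of the 4 against wt was 0.25 in 1KI, 0.01 in 3bKI and 0.16 in 3aKO. Brca1 was at 5.61, 5.84, 6.22 and 6.45 in 3bKI tumours, against a lowest, median and highest value of 4.82, 5.49 and 5.92 in wt. Of these 4 tumours, 3bKI 3 and 3bKI 4 lay above every wt liver. The change was 0.63 ± 0.23 (adjusted p = 0.150), and in 1KI it was 0.62 ± 0.28 (adjusted p = 0.261).

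Msh6 was at 7.56, 7.00, 7.91, 7.63 and 7.84 in 1KI and at 7.36, 7.39, 7.54, 7.44 and 7.33 in 3aKO, against a lowest, median and highest value of 6.85, 7.18 and 7.37 in wt. All 1KI tumours but 1KI 2 lay above the wt range. The change against wt was 0.43 ± 0.14 in 1KI (adjusted p = 0.172), 0.25 ± 0.09 in 3aKO (adjusted p = 0.641) and 0.01 ± 0.13 in 3bKI (adjusted p = 0.966).

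Chek1 was at 3.44, 3.71, 3.90, 3.93 and 3.69 in 1KI tumours, against 3.97, 4.01, 4.19, 3.97 and 3.88 in 3aKO livers. The change was -0.27 ± 0.10 (adjusted p = 0.302), and with the mean of its probe sets it turned to 0.24 (adjusted p = 0.403). The alternative that dropped the dimmest 40% of genes left out Chek1 too. Clspn had a change against wt of 0.07 in 1KI and 0.00 in 3bKI.

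Set against 3aKO livers, the other normal group, the members' median changes were smaller than those against wt. In 1KI 32 of 47 were above 0 (45.3% of all genes), with a median of 0.09 beside -0.02, and no member was called (0% of all genes in either direction). At an unadjusted p under 0.05 there were 3 higher members, Cdc6, Rrm2 and Clspn (6% of all genes), and 3 lower, Pold2, Rpa3 and Chek1 (8.01%). In 3bKI 26 of 47 were above 0 (54.7% of all genes), with a median of 0.05 beside 0.03. At an unadjusted p under 0.05, Gins2 and Fen1 were higher (13.4% of all genes) and Gmnn, Mcm10, Gins1, Rpa1 and Rpa3 lower (15.7%).

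Single tumours differed widely in these genes. The median shift of the 47 members from the wt mean was 0.17, -0.18, 0.15, 0.13 and 0.61 in the 1KI tumours, against 0.04 to 0.26 in 3aKO livers and -0.14 to 0.18 in wt livers. The mean shift of Mcm2 through Mcm6 in the same tumours was 0.83, -0.53, 0.97, 0.55 and 2.19. 1KI 5 was thus the tumour with the highest replication genes and 1KI 2 the one with the lowest. 1KI 5 was the highest 1KI array in 34 of the 47 members and exceeded every wt liver in 32. Without it, the members' median change was 0.09 against wt, with 31 of 47 above 0, and -0.00 against 3aKO, with 23 of 47 above 0.

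Among the 3bKI tumours the median shift was -0.04, 0.39, 0.06 and 0.06, against -0.21 to 0.20 in wt livers. 3bKI 2 was the highest 3bKI array in 27 of the 47 members and exceeded every wt liver in 18. Without it the median change against wt was 0.01, with 25 of 47 above 0, and the median change against 3aKO was -0.03, with 18 of 47 above 0. The small median shift over all 47 members in 3bKI therefore rested on 1 tumour, but that of some roles did not. Without that tumour the MCM ring had a median change against wt of 0.30 (5 of 6 above 0). Origin recognition and licensing had one of 0.15 (4 of 6). The medians of the other roles ran from -0.03 to 0.11.

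**Figure D4:**
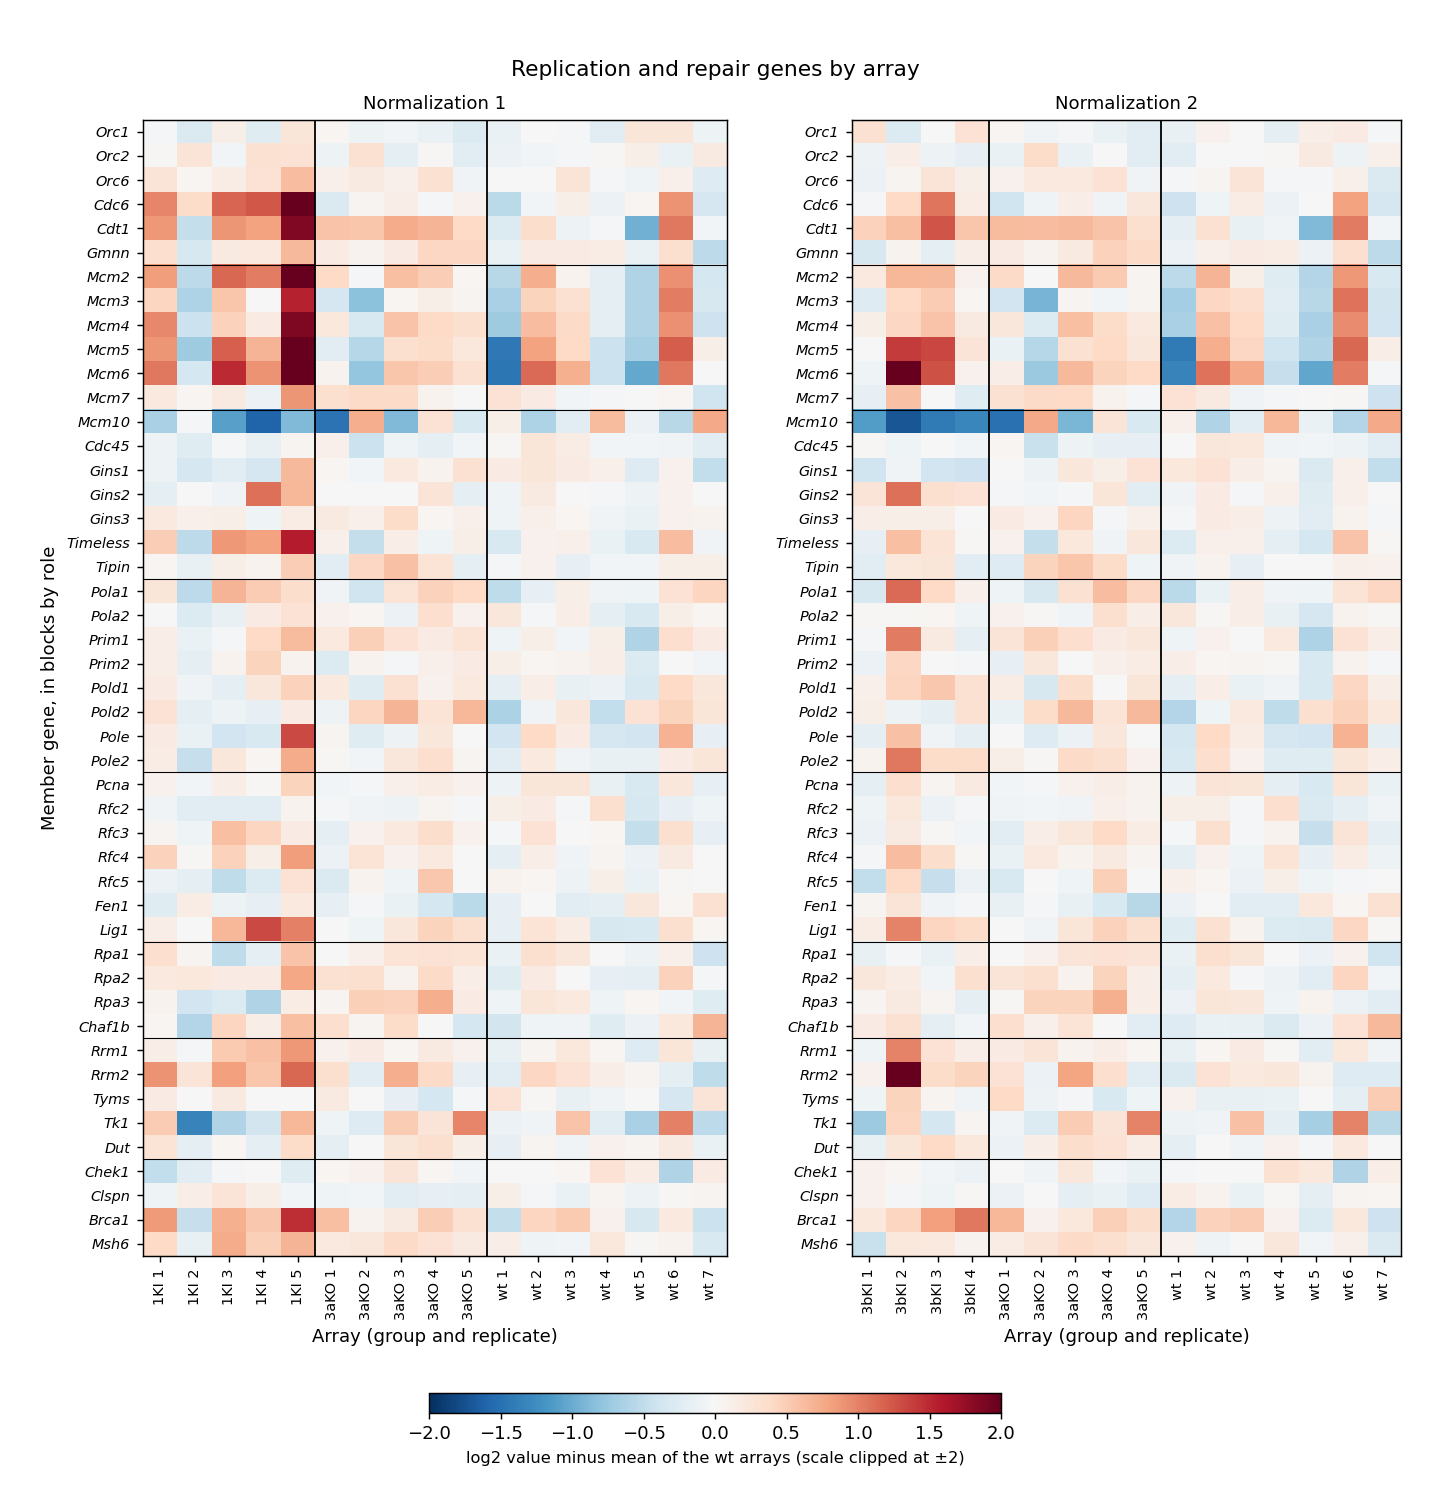
Log2 value of each of the 47 members minus the mean of the wt arrays of the same normalization, by array, with members in blocks by role and the colour scale ending at 2 log2 units in either direction. The column of 1KI 5 is high over most members and that of 3bKI 2 over fewer, while Mcm10 is low in the 3bKI tumours.

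The spread of the members in each group was set beside that of the wt livers of the same normalization. The SD was larger in 1KI than in wt for 39 of the 47 members (83.0%), against 53.9% of all genes. It was larger in 3bKI than in wt for 19 of the 47 (40.4%), against 48.4% of all genes. In 3aKO livers it was larger for 13 of the 47 (27.7%), against 36.8% of all genes. The wt livers, the 3aKO livers and the 1KI tumours held both sexes as read from the arrays. All 3bKI tumours that could be read were female, and the part of sex in these spreads was not tested.

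Mitosis genes, a list of 34 genes such as Cdk1 and Mad2l1 that act after replication, were set beside the members. Their median change against wt was 0.47 in 1KI and 0.86 in 3bKI, beside 0.14 and 0.08 for the members, and none was called in either comparison. At an unadjusted p under 0.05, 20 of the 34 were higher in 1KI and 22 in 3bKI, and 0 were lower in either, where 9.05% and 9.84% of all genes were higher and 10% and 10.9% lower. Cdk1, the mitotic kinase, was 1.26 ± 0.25 above wt among 1KI tumours (adjusted p = 0.0640). Among 3bKI tumours it was 1.55 ± 0.49 above wt (adjusted p = 0.110).

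The tumours high in replication genes were not all high in mitosis genes. The median shift of the mitosis genes was 0.05, 0.31, 0.68, 1.03 and 0.25 in the 1KI tumours and 0.08, 2.35, 0.85 and 0.17 in the 3bKI tumours, against -0.11 to 0.20 in wt livers. 1KI 5, highest in the replication genes, was above 1KI 1 alone in the mitosis genes, and its Mki67, the proliferation marker, was 5.14, against a wt range of 4.27 to 5.37. 1KI 4 had an Mki67 of 7.80 and a member shift of 0.13. In 3bKI 2 both lists were highest of their group, and Mki67 was 8.33, against 3.97 to 5.13 in wt.

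**Figure D5:**
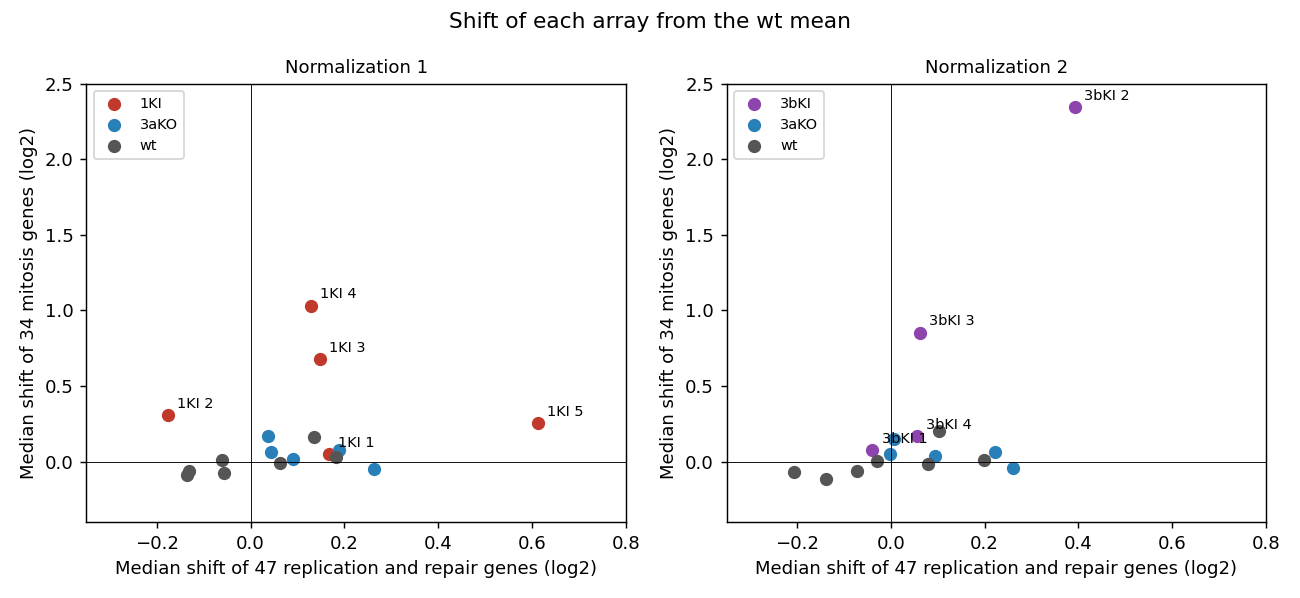
Median shift from the wt mean of the 34 mitosis genes (vertical axis, log2) against that of the 47 replication and repair genes (horizontal axis, log2), with 1 point per array in each normalization. 1KI 5 lies far to the right at 0.61 with a mitosis shift of 0.25, and 3bKI 2 lies at 0.39 with a mitosis shift of 2.35.

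The members also differed within normal liver. Xist and 3 Y-linked genes served to read the sex of the animals, which gave 2 females and 3 males in 1KI, 3 females and 1 unclear array in 3bKI, 3 females and 2 males in 3aKO, and 3 females and 4 males in wt. In the first normalization the 3 wt livers read as female lay wholly above the 4 read as male in 15 of 47 members, against 5.68% of all genes, and wholly below in 1, Mcm10, against 5.07%. The 15 were Gmnn, Mcm2, Mcm3, Mcm4, Mcm5, Mcm6, Timeless, Pole, Pcna, Lig1, Rpa1, Rpa2, Rrm1, Tk1 and Brca1, and the median difference, female minus male, over the 47 was 0.22. In the second normalization, which holds the same livers, the counts were 16 above and 2 below (Mcm10 and Tyms), against 5.78% and 4.98% of all genes. In 3aKO livers the counts were 3 above and 8 below in the first normalization, against 12.3% and 13.4% of all genes, and 5 above and 5 below in the second, against 12.8% and 13.7%. In 1KI tumours they were 15 above and 2 below, against 13.1% and 12% of all genes. Both 1KI 1 and 1KI 5 were read as female, as were all 3bKI tumours that could be read, so in the 3bKI comparisons the covariate sets female tumours against female livers. Set against 3aKO in this way, 21 of 47 members were above 0, with a median of -0.052.

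The members with an E2F word in their promoter window were set beside those without. The 15 with a word had a median change against wt of 0.25 in 1KI (14 of 15 above 0), 0.33 in 3bKI (15 of 15) and 0.12 in 3aKO (11 of 15). The 24 with a window and no word had medians of 0.09 (16 of 24 above 0), 0.07 (17 of 24) and 0.09 (18 of 24). With the sex covariate the 3bKI medians were -0.033 with a word (7 of 15 above 0) and -0.091 without (7 of 24). Without 3bKI 2 and with no covariate they were 0.20 with a word (12 of 15) and -0.01 without (11 of 24). No test was made of this split. Mcm6, Mcm5 and Cdc6, whose promoter stretches are printed here, are among the 15, while Rrm2 and Mcm2, whose changes in 1KI were also among the largest, are not.

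Other genes of the pathway were read from lists. Of 52 other replication and repair genes, none was called against wt in 1KI or 3bKI, and their median changes were 0.05 and 0.06. At an unadjusted p under 0.05, 12 were higher and 1 lower in 1KI, where 9.05% and 10% of all genes were. In 3bKI 8 were higher and 9 lower, where 9.84% and 10.9% of all genes were. Dbf4, the activating subunit of the kinase that fires origins, was 1.36 ± 0.26 above wt in 1KI (adjusted p = 0.0551). Every tumour lay above every wt liver in Dbf4, as in 1.12% of all genes. Uhrf1, which couples DNA methylation to replication, was 1.42 ± 0.33 above wt in 1KI (adjusted p = 0.0912). In 3bKI the checkpoint kinases Atm and Atr had changes of -0.34 ± 0.09 and -0.43 ± 0.11 (adjusted p = 0.0655 and 0.0719).

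Of 16 genes of the E2Fs, pocket proteins and G1/S cyclins, 1 was called. Rbl2, which encodes the pocket protein p130 that holds E2F targets off in resting cells, fell in 3bKI by 0.77 ± 0.13 on the log2 scale against wt (adjusted p = 0.0206). In that comparison 0.978% of all genes were called lower. The sex covariate and the fits without single arrays were read for members only, so whether the Rbl2 call holds in them was not tested. Ccna2, the S-phase cyclin A2, was above wt by 1.05 ± 0.25 among 1KI tumours (adjusted p = 0.101) and by 1.48 ± 0.47 among 3bKI tumours (adjusted p = 0.108). Of the 7 stellate cell markers, 1 was called higher than wt in 1KI (0.209% of all genes) and 3 in 3bKI (1.09%). Their part in any of these values was not tested.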

How the data were processed

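Liver RNA of 21 arrays was read from 33 columns of log2 values that the authors deposited, for 45101 probe sets. Per the labels, the authors normalized the values in 2 separate runs, and the method is not given in the sources used here. The 12 arrays held in both runs correlated at 0.999 across genes, with a median shift of -0.11 from the first run to the second. Groups came from the labels. There were 64 array controls, 34945 probe sets with 1 gene symbol, 932 with several and 9160 without one. Among probe sets with 1 symbol, that of highest mean stood for each of 18193 genes, and 35 of the 47 members had more than 1.

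Each of 5 comparisons was fitted on its own 2 groups, within its run, by lmFit and eBayes of limma 3.58.1 under R 4.3.3. The tests were two-sided, with Benjamini-Hochberg adjustment over all 18193 genes and a call at an adjusted p under 0.05. Errors are moderated standard errors (SE) after a log2 change and standard deviations (SD) beside a level. The number of arrays limits the precision. An array was read as female with Xist above 10 (log2) and Y-linked genes, 3 in number, averaging under 5, and as male in the opposite case. The fit was tested on simulated data with known changes.

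The members, the lists and the tests were chosen with earlier results of these data known. Values of every array are given for the 3 members of smallest p in each comparison and for the members of largest increase and decrease in each tumour group. In the other lists, up to 3 genes of smallest p per list in each tumour group against wt could be named. The alternatives tried were quantile normalization, centring each array on its median, dropping the dimmest 40% of genes, averaging a gene's probe sets, fitting all 3 groups together, trend and robust options of eBayes, weights per array, a replicate block, a sex covariate, and leaving out each array. A test of every probe set was added after seeing the data. Promoter windows are those of RefSeq for GRCm38.p6.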

Additional observations from a re-analysis of the deposited data

Results flagged for a closer look

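Among 48 groups of values of the named members, 3 held an array far from the rest of its group by Dixon's test, and chance gives about 1 in 20. In wt livers of the first normalization, Chek1, the checkpoint kinase, was at 3.33 in wt 6 and between 3.92 and 4.21 in the other 6. In 3bKI tumours the helicase factors Gins1 and Gins2 were both highest in 3bKI 2. Gins1 was at 6.21 there and at 5.88 to 5.90 in the other 3 tumours, and Gins2 at 6.73 there and at 5.88 to 5.94 in the others. The same tumour had the highest mitosis genes of its group, with a median shift of 2.35, and its sex could not be read.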

How the results depend on the processing

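In 1KI against wt, 1 member (Cdc6, 1.18, adjusted p = 0.0289) was called higher with all 3 groups in 1 fit, where 1.21% of all genes were. With the sex covariate 2 were called higher (Cdc6, 1.20, adjusted p = 0.0494, and Rrm2, 0.74), where 0.418% of all genes were. Leaving out 1 array gave a median change of 0.086 to 0.28. In 3bKI against wt, the replicate block gave 2 higher (Mcm5 and Mcm6, the second at 0.82, adjusted p = 0.0460) and 2 lower (Gins1 and Mcm10). In that fit 1.58% of all genes were called higher and 2.23% lower. The sex covariate gave 0 lower in 3bKI against wt (0.0934% of all genes), a median of -0.062 and -0.53 for Mcm6. Leaving out 1 array gave 0 to 1 lower there and 0 to 1 lower in 3bKI against 3aKO, the 1 being Mcm10 in place of Gins1 without 3aKO 1. In these fits 0.0879% to 2.72% of all genes were called lower against wt, and 2.00% to 5.12% against 3aKO. In 3bKI against 3aKO, the mean of probe sets gave 1 higher (Clspn) and 0 lower, where 2.58% and 5.23% of all genes were. All 3 groups in 1 fit gave 1 higher (Gins2, 0.51, adjusted p = 0.0406) and 0 lower, where 4.27% and 6.76% of all genes were. The replicate block and the sex covariate gave 0 lower each, where 0.170% and 0.456% of all genes were. Chek1 in 1KI against 3aKO turned to 0.24 with the mean of probe sets. The cause of these moves was not tested. The other settings run on 1 value per gene gave the counts of called members printed in the report. Same-numbered arrays correlated at -0.19 to 0.01 in 1KI against wt, -0.15 to 0.21 in 3bKI against wt and 0.06 to 0.28 in 3bKI against 3aKO, and each array was closest to its own number in 0 of 5, 2 of 4 and 2 of 4, so the numbers were not taken as pairs. Over all settings the members' median ran from 0.06 to 0.14 in 3aKO against wt, -0.06 to 0.17 in 3bKI against wt, -0.05 to 0.11 in 3bKI against 3aKO and -0.00 to 0.16 in 1KI against 3aKO. With 4 to 7 arrays a group, small changes cannot be resolved.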

Other observations

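Probe sets of the same member often disagreed. Of the 35 members with more than 1 probe set, 14 held both signs in 1KI against wt, 9 in 3bKI against wt and 18 in 3aKO against wt. Testing all 104 probe sets of the members, with adjustment over every probe set of the array, called 0 in 1KI against wt, 2 in 3bKI against wt, both of Mcm10, and 4 in 3bKI against 3aKO. The 4 belonged to Clspn, Gins1, Mcm10 and Mcm3. In that comparison a second Clspn probe set rose by 0.74 (adjusted p = 0.0282) and a second Mcm3 probe set by 0.53 (adjusted p = 0.0237), where the probe sets of highest mean gave 0.14 and 0.43. Mcm6, the member of largest increase, had 3 probe sets, which gave 1.20, 0.82 and 0.10 in 1KI against wt and 0.83, 0.40 and -0.08 in 3bKI against wt.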
